A study of Mus musculus with 15 samples.

Results

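The caveolae genes examined here were 4 of the 38283 genes in the deposited table: Cav1, Cav2 and Cav3, which encode the caveolins, and Ptrf, which encodes the coat protein PTRF, also called cavin-1. They were taken from the table by gene symbol. The set was chosen by measured values, namely the level of Cav1 in alpha cells against beta and delta cells, so the levels of all 4 genes are given as a description and were not tested. Tests were kept for genes that the choice did not use. The lists of these genes were themselves chosen with earlier results of these data known.

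RNA was measured in 15 samples of islet cells purified by FACS from mice on a C57BL/6 background. Glu-Venus mice, in which the proglucagon promoter drives the fluorescent protein Venus, gave the alpha cell samples (n = 5) as the Venus-positive cells. The same line gave the beta cell samples (n = 4), sorted among cells without Venus for high scatter and autofluorescence. The delta cell samples (n = 6) were sorted from Sst-CreXROSA26EYFP/EYFP mice, in which Cre under the Sst promoter switches on EYFP. Islets of several mice were pooled for each sample, no treatment is named, and ages and sexes are not given for these mice, so p-values measure the spread between pools. Mouse line and cell type cannot be told apart in comparisons with delta cells.

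Caveolae are small flask-shaped pits of the plasma membrane, rich in cholesterol and sphingolipids. Caveolin-1 and caveolin-2 form mixed oligomers in the inner leaflet of the membrane, caveolin-3 takes this role in muscle, and the cavins form a coat on the cytoplasmic face of the pit. Caveolae are known to be abundant in endothelial cells, adipocytes and muscle. The coat is bordered by EHD ATPases, membrane-bending PACSIN proteins and the fission GTPase dynamin-2.

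Cav2 (ENSMUSG00000000058) lies on chromosome 6 from 17281185 to 17289115 and Cav1 (ENSMUSG00000007655) follows it on the same plus strand, from 17306335 to 17341452 (GRCm38, GENCODE). The annotation lists 3 transcripts for Cav2 and 10 for Cav1. The antisense gene Gm15581 spans both on the minus strand, and since counting is not stated to use strand its reads cannot be told apart from theirs; it was above 0 in 2 samples and reached 0.0078 FPKM. Cav3 (ENSMUSG00000062694) lies far from the pair on chromosome 6, from 112459505 to 112472872, with 1 transcript. Ptrf (ENSMUSG00000004044, named Cavin1 in the annotation) lies on the minus strand of chromosome 11, from 100956733 to 100970887, with 2 transcripts.

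The adjacent genes Cav2 and Cav1 differed in where they were measured, so the 250 bases before the first annotated start of each are shown (RefSeq, GRCm38.p6, read 5′ to 3′ on the gene's strand). The windows are chr6:17280935-17281184 for Cav2 and chr6:17306085-17306334 for Cav1, both on the plus strand. Capitals mark matches to the letters GGGCGG (a GC box) or TATAAA, searched on both strands, with the reverse complement in capitals where the match is on the other strand.
Cav2: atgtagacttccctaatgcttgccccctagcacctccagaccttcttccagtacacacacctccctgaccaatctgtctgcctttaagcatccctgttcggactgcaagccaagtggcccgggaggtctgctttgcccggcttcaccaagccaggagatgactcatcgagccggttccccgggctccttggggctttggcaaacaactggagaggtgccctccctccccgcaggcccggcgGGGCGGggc
Cav1: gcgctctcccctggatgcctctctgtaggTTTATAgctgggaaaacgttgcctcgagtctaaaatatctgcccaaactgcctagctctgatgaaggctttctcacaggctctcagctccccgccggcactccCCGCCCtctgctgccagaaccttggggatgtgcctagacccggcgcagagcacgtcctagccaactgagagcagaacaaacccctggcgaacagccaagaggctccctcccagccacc
The windows of Cav2 and Cav1 were alike in base composition, with 62% and 59.6% G or C and 10 CG pairs each. Over all 32851 windows of this length the median was 52.4% G or C with 6 CG pairs. Each of the 2 windows held 1 GC box, which was found in 32.7% of all windows. Counted from the start, it began at position -9 in Cav2 and -118 in Cav1. The Cav1 window also held TATAAA letters on the opposite strand, at position -221; 12.4% of windows held them on either strand. The letters TAATTA (a homeodomain core, in 4.84% of windows), TGTTTAC (a forkhead motif, in 3.17%) and TGCTGA (a Maf half-site, in 16.1%) were not in these windows, and the motifs searched do not overlap one another in them. A second Cav1 start in RefSeq, with the window chr6:17307390-17307639, and the Cav3 window held none of the 5 motifs.

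The table gives FPKM, that is, fragments scaled by transcript length and by library size, so levels can be compared between genes per length. The step of a single read was resolved in 6 samples, at depths from 7.48 M to 30.6 M reads, and the depth of the other 9 is unknown. Between 14761 and 18559 genes were above 0 in a sample, and none of 10 housekeeping genes was listed at 0 in any sample. The summed FPKM of 86 ribosomal protein genes lay between 66063 and 141566 in 6 samples (alpha 1, 2 and 3, beta 2, delta 1 and 2), whereas the other 9 lay between 8183 and 39078. These are called the higher and the lower ribosomal set, and values within them are given for the caveolae genes. Other genes named here also parted by set, without a test, and those given here are not all. Within alpha cells Cd36, Capza2, Tes, Flot1, Naglu and Fam46d were higher in every sample of the higher set than in the lower set. Dnm2, Ehd3, Pacsin1, Pacsin2, Epn2, Col1a2, Stat5a, Stat5b and Atp6v0a1 were lower in every alpha sample of the higher set. In delta cells Egfl7 and Flot2 were higher in both samples of the higher set, and Met was lower in both. The defining markers went with the labels by limma on log2(FPKM + 1), with a Benjamini-Hochberg adjusted p under 0.05 as a call. Of 6 alpha cell markers, Gcg among them, 6 were lower in beta and in delta cells than in alpha cells. Of 6 beta cell markers, 6 were higher in beta cells than in either other cell type. Of 4 delta cell markers, 4 were higher in delta than in beta cells and 3 than in alpha cells. Among all genes tested, 7.66% were called between beta and alpha, 6.81% between delta and alpha and 14.7% between delta and beta cells. The promoters of Gcg and Sst marked the sorted cells, and the study picked out Ghsr in these same samples. These counts thus describe the labels and do not test them.

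Cav1, the gene of the principal caveolin of non-muscle cells, was measured in every alpha sample and was at or near 0 in the others. It was at 15.6, 25.1, 10.2, 3.93 and 27.9 FPKM in alpha samples 1 to 5, a mean of 16.5 ± 10.0 FPKM (SD, n = 5). It was listed at 0 in all 4 beta samples. It was listed at 0 in delta samples 1 to 4, at 0.140 FPKM in delta sample 5 and at 0.0197 FPKM in delta sample 6, a mean of 0.0266 ± 0.0560 FPKM (SD, n = 6). The lowest alpha sample was above every beta and delta sample, so alpha cells overlapped with neither, while beta and delta samples overlapped. Among the tested genes, 8.12% had no overlap between beta and alpha cells, 6.64% between delta and alpha cells and 14.9% between delta and beta cells. Since Cav1 was chosen for its level in alpha cells, its place among those without overlap with alpha cells is no result. The difference of mean log2(FPKM + 1) was -3.88 for beta minus alpha cells and -3.84 for delta minus alpha cells. No fold is given here, as all beta samples and 4 of 6 delta samples were listed at 0. In samples of sorted cells, fewer cells that hold a transcript and less of it per cell cannot be told apart.

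A value of 0 limits Cav1 only as far as the depth allows. In delta samples 1 to 4, whose depth could be resolved, 3 reads of the Cav1 transcript of 2522 nucleotides would be worth 0.120, 0.132, 0.0423 and 0.0511 FPKM, which is the level a count of 0 allows there for counting error alone. In alpha samples 2 and 5, 1 read was worth 0.0576 and 0.0167 FPKM, so the Cav1 levels there stood on many reads. The depth of the beta samples is unknown, and no such limit can be given for them.

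Within alpha cells the level of Cav1 varied 7.09-fold from the lowest to the highest sample. The SD of its log2(FPKM + 1) was 1.04, against a median of 0.70 over the genes tested, and 77.5% of these had a lower SD. By mean FPKM it ranked 3086 of 38283 genes in alpha cells, and 91.9% of genes were lower. Its level overlapped between the ribosomal sets, and its mean was 16.95 FPKM in the 3 alpha samples of the higher set and 15.9 FPKM in the other 2.

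**Figure D1:**
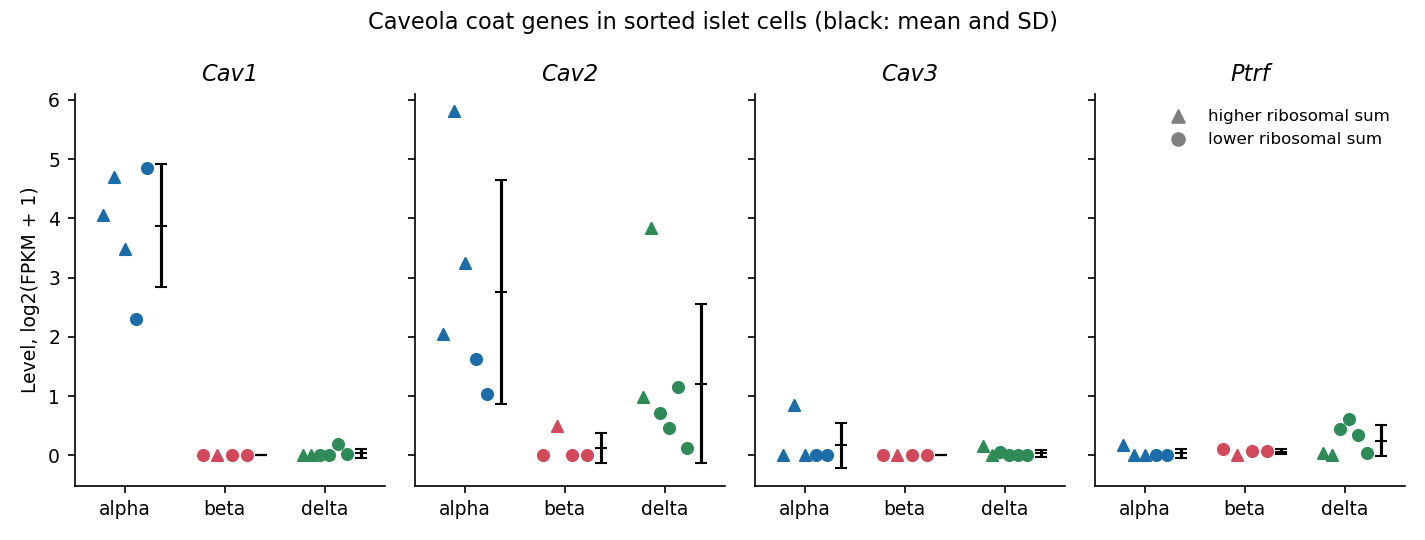
Levels of Cav1, Cav2, Cav3 and Ptrf as log2(FPKM + 1) in each alpha (n = 5), beta (n = 4) and delta (n = 6) cell sample. Triangles are samples of the higher ribosomal set, circles those of the lower set, and black bars the mean and SD. Cav1 is apart from 0 in the alpha samples, Cav2 is highest in alpha sample 2 and delta sample 2, and Cav3 and Ptrf stay below 1 FPKM in all samples.

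Cav2, the gene of the partner that oligomerises with caveolin-1, was highest in alpha cells but was also measured in delta cells. It was at 3.12, 55.0, 8.51, 2.10 and 1.04 FPKM in alpha samples 1 to 5 (13.96 ± 23.1, SD, n = 5, median 3.12). The beta samples were at 0, 0.416, 0.00838 and 0 FPKM (0.106 ± 0.207, SD, n = 4). The delta samples 1 to 6 were at 0.978, 13.2, 0.640, 0.384, 1.23 and 0.0911 FPKM (2.76 ± 5.15, SD, n = 6, median 0.809). Every alpha sample was above every beta sample, whereas delta samples overlapped with both other cell types. The difference of mean log2(FPKM + 1) was -2.62 for beta minus alpha cells, -1.54 for delta minus alpha cells and 1.09 for delta minus beta cells. Without alpha sample 2 the difference of delta minus alpha cells was -0.78, and without delta sample 2 that of delta minus beta cells was 0.56. In order of mean level, alpha cells stood above delta cells and delta above beta cells, and the samples of delta cells overlapped with those of both neighbours in this order.

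Cav2 was carried in each cell type by the sample numbered 2. Its value there was 55.0 FPKM in alpha cells against at most 8.51 in the others, 0.416 in beta cells against at most 0.00838, and 13.2 in delta cells against at most 1.23. All 3 samples are in the higher ribosomal set. In that set Cav2 ranged from 3.12 to 55.0 FPKM in alpha cells (n = 3) and from 0.978 to 13.2 in delta cells (n = 2), and the single beta sample was at 0.416. In the lower set it ranged from 1.04 to 2.10 FPKM in alpha cells (n = 2), from 0 to 0.00838 in beta cells (n = 3) and from 0.0911 to 1.23 in delta cells (n = 4). In both sets the mean was highest in alpha and lowest in beta cells, and the differences of mean log2(FPKM + 1) in the lower set were -1.33 for beta minus alpha, -0.71 for delta minus alpha and 0.61 for delta minus beta cells. The part of the ribosomal sets in the level of Cav2 was not tested. The SD of log2(FPKM + 1) was 1.89 in alpha cells and 1.33 in delta cells, and 95.2% and 92.6% of the tested genes had a lower SD in these cell types.

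The balance of the 2 genes shifted between alpha samples. The ratio of Cav1 to Cav2 in FPKM was 5.02, 0.456, 1.19, 1.87 and 26.7 in alpha samples 1 to 5. Cav1 was thus above Cav2 in 4 of 5 alpha samples, and the exception was sample 2, where Cav2 peaked. In delta samples 5 and 6, the only ones with a value for Cav1, the ratio was 0.114 and 0.216, so there Cav2 was the higher of the pair. Over all 15 samples Pearson's r of log2(FPKM + 1) between Cav1 and Cav2 was 0.603, a description of samples that share their cell type.

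**Figure D2:**
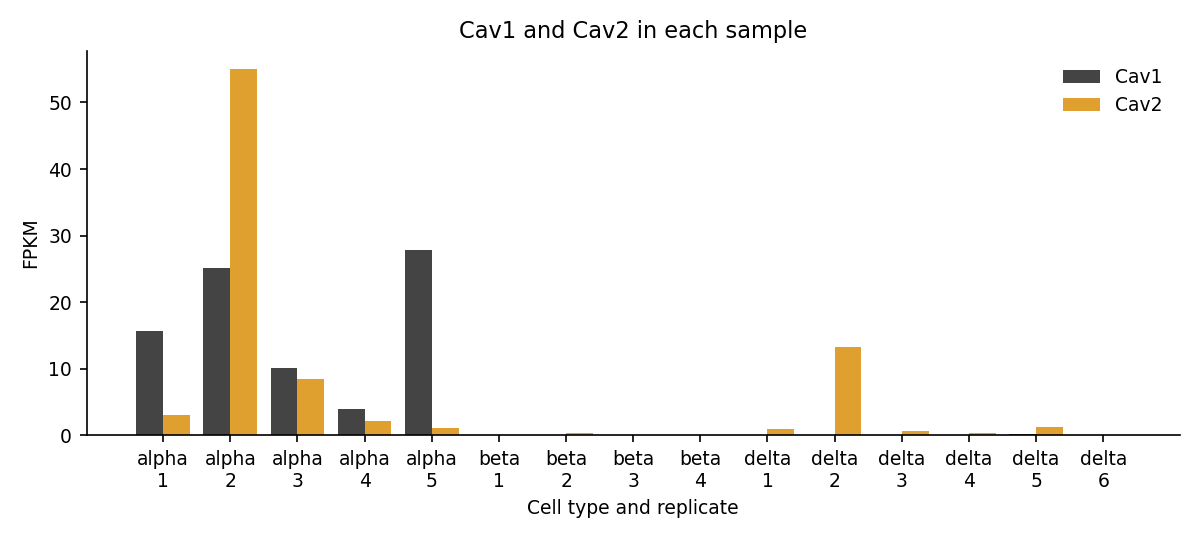
FPKM of Cav1 (dark bars) and Cav2 (orange bars) in each of the 15 samples, by cell type and replicate, on a linear axis from 0. Cav1 is the taller bar in alpha samples 1, 3, 4 and 5, and Cav2 in alpha sample 2, beta samples 2 and 3 and every delta sample, most of these close to 0.

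Cav3, the muscle caveolin gene, was close to 0 throughout. It was at 0.797 FPKM in alpha sample 2, 0.1125 in delta sample 1 and 0.0355 in delta sample 3, and was listed at 0 in the other 12 samples. Every beta sample was among these. Ptrf, whose product cavin-1 is needed with caveolin-1 for the pits to form in non-muscle cells, was also below 1 FPKM in all samples. Alpha cells had 0.134 FPKM in sample 1 and were listed at 0 in the other 4 (0.0267 ± 0.0598, SD, n = 5). Beta samples were at 0.0747, 0, 0.0592 and 0.0514 FPKM (0.0463 ± 0.0324, SD, n = 4), and delta samples at 0.0323, 0, 0.362, 0.540, 0.267 and 0.0352 FPKM (0.206 ± 0.220, SD, n = 6). The 3 cell types overlapped for Ptrf, alpha cells, where Cav1 and Cav2 were highest, included. The 3 highest Ptrf values were in delta samples 3, 4 and 5, all of the lower ribosomal set. Differences of mean log2(FPKM + 1) for Ptrf were 0.03 for beta minus alpha, 0.21 for delta minus alpha and 0.19 for delta minus beta cells. Of the 4 genes, Cav1 and Cav2 passed the filter of a mean above 1 FPKM in a cell type, and did so through alpha cells (Cav2 also through delta cells); Cav3 and Ptrf did not.

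The other genes of the caveola were asked whether they followed Cav1, using a list of 12 that the choice of the 4 genes did not use. This list, too, was chosen with earlier results of these data known. None was called higher in alpha cells. Of the 9 that passed the filter, 0 were called between beta and alpha cells in limma's test, with 0 at an unadjusted p under 0.05. Against alpha cells 1 gene was called higher in delta cells, and against beta cells 2 were, with 4 and 3 at an unadjusted p under 0.05. Over all 14405 genes, 7.66%, 6.81% and 14.7% were called in these comparisons. The called genes, Pacsin3 and Prkcdbp, passed the filter only through delta cells, where they are high, as did Ror1, so the filter itself favoured calls in this direction and the counts are a description; with no filter they were also 0, 1 and 2. The median log2 difference of the 9 genes was -0.07, 0.74 and 0.55 in the same order, beside -0.13, 0.13 and 0.30 over all genes.

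Among the other cavins, Prkcdbp, which encodes cavin-3, was measured mainly in delta cells. It was at 0.309, 0.161, 0.253, 0 and 0 FPKM in alpha samples, at 0 in all 4 beta samples, and at 1.27, 2.66, 0.778, 0.518, 0.112 and 1.29 FPKM in delta samples. All delta samples were above all beta samples, while alpha and delta samples overlapped. Its delta mean of 1.10 FPKM alone admitted it to the test, and it was not tested without delta sample 2. The difference of delta minus beta cells was 0.97 on the log2(FPKM + 1) scale (SE 0.31, limma adjusted p = 0.0455), a call kept in 9 of 21 alternative computations. It was lost after quantile normalisation (0.0753) and when any of alpha samples 1 to 4, beta samples 1 to 4 or delta samples 1, 3 and 6 was left out, with limma adjusted p from 0.0501 to 0.0981. That of delta minus alpha cells was 0.79 (limma adjusted p = 0.143). Sdpr (cavin-2) had means of 0.0387, 0 and 0.122 FPKM in alpha, beta and delta cells, and Murc (cavin-4, the muscle form) was above 0 only in alpha sample 3, at 0.213 FPKM; neither passed the filter.

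Of the genes for proteins at the neck of the pit, Pacsin3, the PACSIN known from muscle, was called higher in delta cells against each of the others. It was at 0, 0.0765, 0.129, 0.125 and 0 FPKM in alpha samples, at 0.0715, 0, 0 and 0 in beta samples, and at 4.23, 0.468, 0.594, 1.28, 2.61 and 1.44 in delta samples. The lowest delta sample was above every alpha and beta sample, and only the delta mean of 1.77 FPKM passed the filter. The difference was 1.23 against alpha cells (SE 0.31, limma adjusted p = 0.0222) and 1.30 against beta cells (SE 0.33, limma adjusted p = 0.0148). The second call held in 22 of 22 alternatives. The first was lost without alpha sample 1 (adjusted p = 0.0529), without delta sample 5 (0.0565), after quantile normalisation (0.0562) and with replicate number as a block (0.0564).

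The remaining 7 were not called in any comparison. Dnm2, for dynamin-2, was the highest of them at 13.5 ± 9.68 FPKM in alpha (SD, n = 5), 18.6 ± 6.68 in beta (SD, n = 4) and 23.7 ± 5.95 in delta cells (SD, n = 6). Pacsin2, the PACSIN best known at caveolae, had means of 3.26, 3.41 and 5.49 FPKM, and Pacsin1, its neuronal relative, had 3.00, 1.23 and 5.48. Of the EHD ATPases, Ehd1 had means of 3.97, 3.77 and 3.796 FPKM, Ehd3 of 1.27, 1.70 and 2.28 and Ehd4 of 4.11, 1.32 and 3.32. Single samples carried some of these means, as Ehd1 was at 11.3 FPKM in beta sample 2 against at most 1.76 in the other beta samples, and at 9.245 in alpha sample 2 against at most 3.17. Ehd4 was at 13.6 FPKM in alpha sample 5 against at most 2.71 in the others, and at 8.96 in delta sample 2 against at most 2.91. Ehd2, the member known to sit at the caveola neck, was near 0 in all, with means of 0.078, 0.0784 and 0.0787 FPKM, and did not pass the filter. Ror1, a receptor known to hold caveolin-1 and cavin-1 together, had means of 0.411, 0.569 and 1.11 FPKM.

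**Figure D3:**
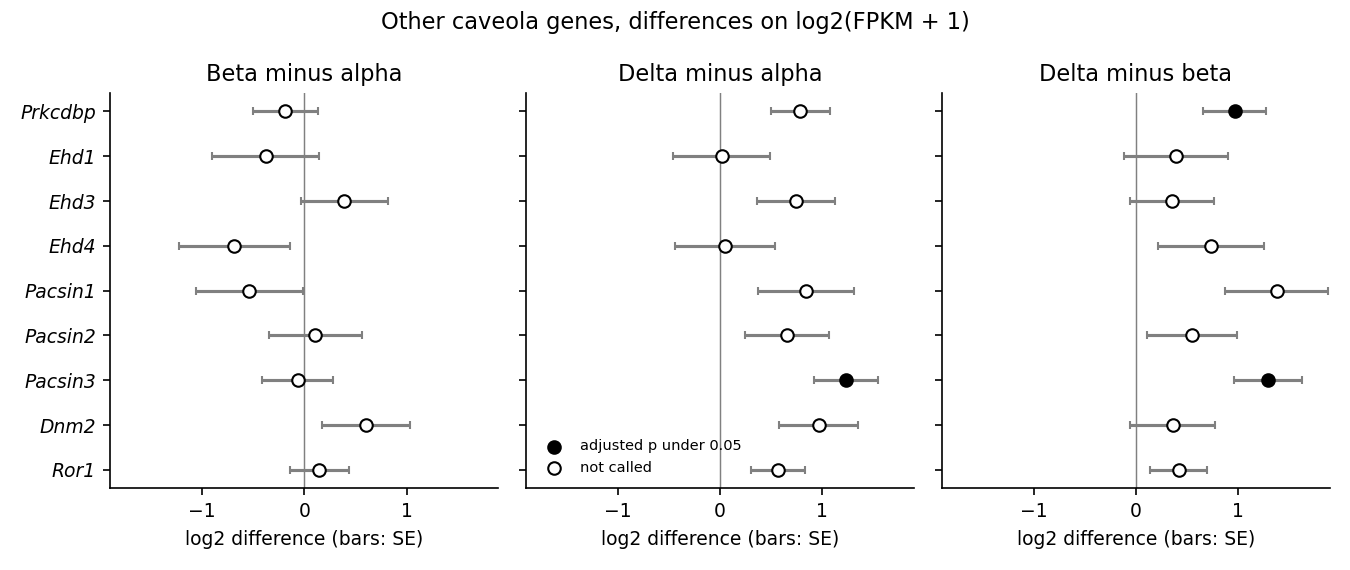
Differences of mean log2(FPKM + 1) with SE from limma for the 9 other caveola genes that passed the filter, in 3 panels for beta minus alpha, delta minus alpha and delta minus beta cells. Filled circles have an adjusted p under 0.05: Pacsin3 at 1.23 and 1.30 against alpha and beta cells, and Prkcdbp at 0.97 against beta cells.

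Lists of related membrane genes were read in the same fit. Of 6 tested genes of the flotillin and stomatin family, whose products mark membrane rafts apart from caveolae, 0, 0 and 2 were called between beta and alpha, delta and alpha, and delta and beta cells (1, 0 and 3 at an unadjusted p under 0.05), beside 7.66%, 6.81% and 14.7% of all genes. Flot1 ranged from 11.6 to 28.5 FPKM in delta cells (n = 6), from 4.48 to 8.39 in beta cells (n = 4) and from 3.73 to 31.2 in alpha cells (n = 5). The difference of delta minus beta cells was 1.70 (SE 0.51, limma adjusted p = 0.0339), kept in 12 of 23 alternatives. It was lost with no filter, after both scalings and without any of beta samples 1 to 4 or delta samples 1 to 4, with limma adjusted p from 0.0504 to 0.0762. Flot2 ranged from 6.43 to 13.1 FPKM in delta cells and from 1.74 to 7.69 in beta cells, with a difference of 1.38 (SE 0.35, limma adjusted p = 0.0137) that was lost only without beta sample 4 (0.0601).

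Of 10 tested genes for proteins known to bind or signal with caveolins, 2, 0 and 1 were called in the same order (3, 2 and 5 at an unadjusted p under 0.05), beside 7.66%, 6.81% and 14.7% of all genes. Cd36, the fatty acid translocase of caveolin-rich membrane, was at 8.54, 13.1, 22.8, 0.643 and 2.64 FPKM in alpha samples. In beta cells it was at 0.599 FPKM in sample 4 and at 0 in the other 3, and in delta cells it ranged from 1.10 to 3.88 FPKM. All alpha samples were above all beta samples, with a difference of beta minus alpha cells of -2.68 (SE 0.60, limma adjusted p = 0.0115), lost only in a fit of the 2 cell types alone (0.104). Within alpha cells Cd36 moved with the ribosomal sets, as samples 1 to 3 are of the higher set, and the 2 alpha samples of the lower set were above beta sample 4 of that set by as little as 0.643 against 0.599 FPKM. The part of the sets in Cd36 was not tested. Egfr, the epidermal growth factor receptor, was higher in beta than in alpha cells. It ranged from 2.87 to 5.30 FPKM in beta cells and from 0 to 1.10 in alpha cells, with a difference of 1.94 (SE 0.43, limma adjusted p = 0.0114), held in 22 of 22 alternatives. In delta cells Egfr was at 5.61 FPKM in sample 2 and at most 0.901 in the others, and the difference of delta minus beta cells was -1.36 (SE 0.42, limma adjusted p = 0.0384), kept in 9 of 22 alternatives. It was lost with no filter, the pseudocount of 0.1, the replicate block or 2 cell types alone, and without any of beta samples 1 to 4 or delta samples 1 and 3 to 6, with limma adjusted p from 0.0550 to 0.0888. Nos3, the endothelial nitric oxide synthase, did not pass the filter, and Slc2a4, the insulin-responsive glucose transporter, was listed at 0 in all samples.

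Of 16 tested genes of clathrin-coated pits, a separate entry route, 1 was called in each comparison (3, 1 and 3 at an unadjusted p under 0.05), a share no higher than the 7.66%, 6.81% and 14.7% of all genes. Epn2, a clathrin adaptor of the epsin family, was lower in beta cells. It ranged from 0.95 to 2.51 FPKM in beta cells, from 3.87 to 9.67 in alpha cells and from 3.83 to 10.97 in delta cells, with differences of -1.47 for beta minus alpha (SE 0.33, limma adjusted p = 0.0116) and 1.54 for delta minus beta cells (SE 0.32, limma adjusted p = 0.00363). The first was lost only in a fit of the 2 cell types alone (0.0553). Dnm1, the neuronal dynamin, was at most 0.485 FPKM in alpha cells and ranged from 0.728 to 3.72 in delta cells, a difference of 1.36 (SE 0.31, limma adjusted p = 0.0113). It passed the filter only through delta cells, with a mean of 1.98 FPKM there and 0.985 in beta cells.

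The genes around Cav2 and Cav1 were compared to see whether the alpha cell pattern of the pair was shared along the chromosome. None of the 4 nearest protein-coding genes on either side was called higher in alpha cells. Of these 8 genes, 5 passed the filter, and 0, 1 and 1 were called between beta and alpha, delta and alpha, and delta and beta cells (0, 2 and 2 at an unadjusted p under 0.05), where 7.66%, 6.81% and 14.7% of all genes were called. The called gene was Met, for the receptor of hepatocyte growth factor, which starts 122 kb after the end of Cav1, at 17463800, on the same strand. It was at 1.47, 1.44, 7.67, 1.57 and 4.29 FPKM in alpha samples, at 3.68, 3.92, 0.562 and 2.94 in beta samples, and at 9.83, 12.9, 19.6, 18.5, 30.9 and 16.2 in delta samples. All delta samples were above all others. The difference was 2.27 against alpha cells (SE 0.42, limma adjusted p = 0.00237) and 2.38 against beta cells (SE 0.45, limma adjusted p = 0.00191), both held in 23 of 23 alternatives. Met and Cav1, next to each other on the chromosome, were thus highest in different cell types.

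The other neighbours on chromosome 6 were not called. Tes, for the focal adhesion protein testin, lies 175 kb before Cav2 and had means of 11.2, 21.6 and 13.0 FPKM in alpha, beta and delta cells. Capza2, for a subunit of the actin capping protein, had means of 55.9, 90.9 and 36.1 FPKM, St7 of 3.15, 5.52 and 1.21, and the transcription factor gene Foxp2 of 4.98, 2.88 and 1.19. The beta mean of Capza2 rests on sample 2, at 256.5 FPKM against 14.1 to 58.7 in the others, and that of St7 on sample 4, at 13.45 against at most 3.61. Foxp2 in alpha cells was at 12.2 FPKM in sample 5 against at most 4.33. Tfec and Wnt2 were listed at 0 in all samples, and Mdfic had a mean of 0.0542 FPKM in alpha cells and was listed at 0 elsewhere. Around Ptrf on chromosome 11, 7 of 8 neighbours passed the filter and 0 were called by limma in any comparison (3, 0 and 1 at an unadjusted p under 0.05). Hsd17b1, which did not pass, had means of 0, 0.00377 and 0.00424 FPKM in alpha, beta and delta cells. Means in alpha, beta and delta cells were 20.5, 21.1 and 18.4 FPKM for Stat3, 1.08, 1.09 and 1.91 for Stat5a, 2.38, 10.4 and 4.55 for Stat5b, and 15.1, 41.7 and 23.9 for the proton pump subunit gene Atp6v0a1. The beta mean of Stat5b rests on sample 2, at 36.05 FPKM against 1.56 to 2.41 in the others, which are below every delta sample. Ghdc had means of 1.87, 1.30 and 2.84 FPKM, the lysosomal enzyme gene Naglu 3.31, 1.21 and 3.08, and Coasy, for coenzyme A synthase, 11.3, 4.70 and 7.52. By mean FPKM, Ptrf was below each of these 7 neighbours in every cell type.

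**Figure D4:**
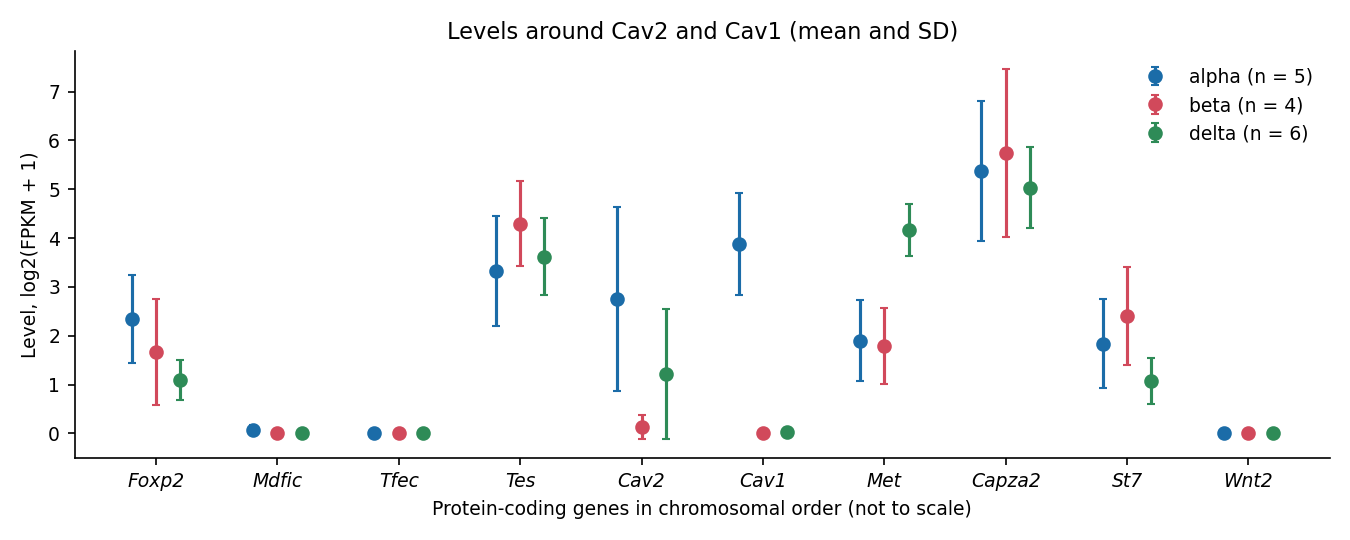
Mean and SD of log2(FPKM + 1) in alpha (n = 5), beta (n = 4) and delta (n = 6) cells for Cav2, Cav1 and the 4 nearest protein-coding genes on each side, in chromosomal order and not to scale. Alpha cells stand above the others at Cav2 and Cav1, and delta cells at Met. By mean, alpha cells are also highest at Foxp2, which was not called, and at Mdfic, which is near 0.

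Since caveolins are abundant in endothelial, fat and muscle cells, markers of these were read beside Cav1. The summed FPKM of 14 endothelial markers ranged from 1.54 to 5.38 in alpha samples, from 0.644 to 5.48 in beta samples and from 10.2 to 29.9 in delta samples. The alpha and beta ranges overlapped, and the delta samples were above both. Cdh5, Tek, Cldn5 and Erg were listed at 0 in all alpha samples, and Pecam1 in 4 of 5. In delta cells Cldn5 was listed at 0 in all 6 samples, Erg in 5, and Cdh5 and Tek in 4 each, while Pecam1 had a mean of 0.322 FPKM. Egfl7 and Esam made up most of the sum, and Egfl7, a secreted vascular factor, was called higher in delta cells by limma, with means of 1.04, 1.04 and 12.3 FPKM in alpha, beta and delta cells. By group mean Egfl7 moved in the direction of Pacsin3, Prkcdbp and Ptrf, which were higher by mean in delta cells. Within delta cells it was highest in samples 1 and 2, at 22.04 and 23.65 FPKM. Ptrf was at 0.0323 and 0 FPKM in these samples, Pacsin3 at 4.23 and 0.468, and Prkcdbp at 1.27 and 2.66. Of the 5 ductal markers, Sox9, Cftr and Muc1 also had their highest means in delta cells, at 1.29, 0.271 and 0.950 FPKM, whereas Krt19 was listed at 0 in all 6 delta samples against a mean of 1.97 in alpha cells, and Spp1 had means of 54.8, 9.05 and 26.3 FPKM in alpha, beta and delta cells. Sox9 was called higher in delta cells against both others (differences of 1.12 and 1.11, limma adjusted p = 0.0182 and 0.0174), but passed the filter only through delta cells. The part of endothelial and ductal RNA in these delta cell levels was not tested.

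The 13 markers of fibroblasts and mural cells summed to 1.93 to 4.98 FPKM in alpha samples, 0.162 to 1.05 in beta samples and 0.606 to 1.78 in delta samples, and so moved with Cav1. Of these 13 genes, 2 had a mean above 1 FPKM in alpha cells, Col1a2 at 2.16 ± 1.47 (SD, n = 5) and Rgs5 at 1.31 ± 0.747 (SD, n = 5), while Col1a1, Lum, Pdgfra, Pdgfrb, Des, Cspg4 and Myh11 were listed at 0 in all alpha samples. Col1a2 was at 1.02, 1.45, 0.848, 3.79 and 3.71 FPKM in alpha samples 1 to 5, above every beta and delta sample, as Cav1 was. It was called lower in beta (difference -1.53, limma adjusted p = 0.00677) and in delta cells (difference -1.52, limma adjusted p = 0.00263), having passed the filter only through alpha cells, which favours calls in this direction. Samples 4 and 5, the highest for Col1a2 and the 2 alpha samples of the lower ribosomal set, were the lowest and the highest for Cav1. The part of fibroblast and mural cell RNA in the level of Cav1 was not tested. All 5 adipocyte markers were listed at 0 in every sample, and the 5 skeletal muscle markers summed to at most 0.482, 1.36 and 0.915 FPKM in alpha, beta and delta samples. The 7 macrophage markers summed to at most 2.92 FPKM in any sample.

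Markers of exocrine cells varied more. The summed FPKM of 5 acinar markers ranged from 0.122 to 58.6 in alpha, 0.0283 to 10.1 in beta and 2.26 to 455 in delta samples, and that of 5 ductal markers from 15.4 to 160, 0.813 to 18.3 and 8.93 to 85.5. The ductal sum, most of it Spp1, moved with Cav2 within alpha and within delta cells. It was 34.8, 159.9, 49.6, 24.5 and 15.4 FPKM in alpha samples 1 to 5 and 22.03, 85.5, 19.2, 14.6, 22.6 and 8.93 in delta samples 1 to 6, the same order of samples as for Cav2 in both. In beta samples it was 0.813, 9.61, 9.18 and 18.3 FPKM, highest in sample 4 where Cav2 was listed at 0. The 5 Schwann cell markers summed to at most 6.94, 3.52 and 9.26 FPKM in alpha, beta and delta samples. The part of acinar, ductal and Schwann cell RNA in the levels of the caveolae genes was not tested.

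The genes most like Cav1 across the 15 samples, by Pearson's r of log2(FPKM + 1) among genes tested, were Ugt8a (r = 0.989), Chst15 (0.982), Galnt13 (0.979), Sertm1 (0.979) and Fam46d (0.975). Their means in alpha cells were 5.49, 2.87, 17.1, 9.81 and 15.3 FPKM. All had means under 0.3 FPKM in delta cells, and Ugt8a, Galnt13 and Fam46d were listed at 0 in all beta samples. By the same measure Cav2 came 495th for Cav1. The genes most like Cav2 were Gm14616 (r = 0.914), 7SK (0.903), Zfp248 (0.902), 0610007P14Rik (0.890) and 2810453I06Rik (0.889), and those most like Ptrf were Mir3074-1 (0.892), SCARNA15 (0.877), CT485999.1 (0.876), SNORA17 (0.875) and Slit2 (0.874). For Ptrf, 4 of these 5 are genes of small RNAs that were listed at 0 in all alpha and beta samples. These values describe samples that share cell type, mouse line and library, and no p is attached to them.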

How the data were processed

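RNA of FACS-purified alpha (n = 5), beta (n = 4) and delta (n = 6) cells was amplified, and the authors aligned single-end reads to GRCm38 with TopHat (TopHat2 2.0.8 in the submitters' processing notes; the study's methods name another release). The deposited values are FPKM of 38283 genes, computed by the authors with Cufflinks 2.2.1; the annotation release is not given in the sources used here. The authors tested raw counts with edgeR; those counts were not used here.

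The 4 members and all gene lists were chosen with earlier results of these data known. Differences were tested with limma 3.58.1 in R 4.3.3 (lmFit, eBayes with trend) on log2(FPKM + 1), a mean per cell type, all 15 samples in 1 fit, two-sided, with Benjamini-Hochberg adjustment over the 14405 genes with a mean above 1 FPKM in at least 1 cell type. An adjusted p under 0.05 was a call. Fold changes on this scale understate changes of low genes. The fit was tested on simulated data. Gene positions are from GENCODE (36341 genes matched) and upstream sequences from RefSeq, which held all 4 member symbols.

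Depth was read from the steps of low values in 5024 genes with 1 transcript, resolved in 6 samples; intervals and floors cover counting error only. Samples were split by summed ribosomal protein FPKM at 50000. Named genes were the 4 members, the caveola genes and neighbours that passed the filter, called genes of the raft, partner and clathrin lists, the 5 genes most correlated with Cav1, Cav2 and Ptrf, and marker genes; caveola genes, neighbours and partners that did not pass are also named to account for each list. Dab2 of the clathrin list was not analysed here. Alternatives were other filters, a pseudocount of 0.1, size factors, quantile normalisation, fits of 2 cell types, a replicate block, the log2 ratio of mean FPKM, the ribosomal sets and each sample left out.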

Additional observations from a re-analysis of the deposited data

Results flagged for a closer look

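Of 78 groups examined (caveolae genes, other caveola genes and tested neighbours, in each cell type), 23 had 1 sample far from the others by Dixon's test. Chance flags about 1 in 20 if values are normally distributed. The test was run on FPKM and not on log2(FPKM + 1). Skewed FPKM, and levels of 0 in most samples of a group, make such a flag easy to reach, so the count is a description.

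For the 4 caveolae genes, the samples apart were alpha sample 2 for Cav2 (55.0 FPKM, next 8.51), beta sample 2 for Cav2 (0.416, next 0.00838) and delta sample 2 for Cav2 (13.2, next 1.23). Cav1 was apart in delta sample 5 (0.140 FPKM, next 0.0197). Cav3 was apart in alpha sample 2 (0.797 FPKM) and delta sample 1 (0.1125), and Ptrf in alpha sample 1 (0.134).

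Among other caveola genes, Ehd1 was apart in alpha sample 2 (9.245 FPKM) and beta sample 2 (11.3), Ehd2 in alpha sample 2 (0.372), Ehd3 in beta sample 2 (3.61), and Ehd4 in alpha sample 5 (13.6) and delta sample 2 (8.96). Murc was apart in alpha sample 3 (0.213 FPKM), Pacsin1 in beta sample 4 (2.08), Pacsin3 in beta sample 1 (0.0715) and Ror1 in alpha sample 1 (0.963). Among neighbours, Foxp2 was apart in alpha sample 5 (12.2 FPKM), St7 in beta sample 4 (13.45), Ghdc in alpha sample 4 (5.02) and beta sample 2 (3.57), Stat5b in beta sample 2 (36.05) and Atp6v0a1 in delta sample 5 (45.7). Samples numbered 2 account for Cav2 in all 3 cell types.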

How the results depend on the processing

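Cav1 stayed lower in beta and delta than in alpha cells, and Cav2 lower in beta than in alpha cells, in every alternative run, and no called difference reversed. Untested differences near 0 did change sign: Cav1 (delta minus beta) with the replicate block, Ptrf within the higher ribosomal set and, for beta minus alpha, with the set as a covariate (-0.019), and Cav3 (delta minus alpha) without alpha sample 2 (0.03) and within the lower set (0.013). Values of low genes moved with the pseudocount of 0.1: Cav1 to -7.08 (beta minus alpha), -6.83 (delta minus alpha) and 0.25 (delta minus beta), Cav2 to -5.08 (beta minus alpha) and 2.77 (delta minus beta), and Ptrf to 0.27, 1.02 and 0.75 in the same order. As a log2 ratio of mean FPKM, Cav1 was -9.28 (delta to alpha, resting on the 2 delta samples above 0 and therefore not a measured fold), Cav2 -7.04 (beta to alpha) and 4.70 (delta to beta), and Ptrf 0.79, 2.95 and 2.15. The beta mean of Cav2 rests on beta sample 2, with 2 of 4 beta samples at 0. The alpha mean of Ptrf rests on alpha sample 1 alone. The ratios of Cav2 and Ptrf are therefore not measured folds either. Within the higher ribosomal set, Ptrf was -0.06 (beta minus alpha) and -0.037 (delta minus alpha).

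Genes called between beta and alpha cells numbered 1104, and 2072 with size factors, 2056 after quantile normalisation, 520 in a fit of these 2 cell types, and 651 (without beta sample 4) to 1698 (without beta sample 2) with a sample left out; without beta sample 1 it was 696 and without alpha sample 2 it was 702. With a filter of 5 FPKM, 518 were called between delta and alpha and 1319 between delta and beta cells, and with a sample left out 792 to 1115 and 1420 to 2643. Of the called genes, 37.0%, 78.3% and 79.6% were higher in the first-named cell type, against 52.7%, 67.9% and 51.5% with size factors and 48.0%, 61.4% and 53.1% after quantile normalisation; for beta against alpha cells the share was 60.1% without beta sample 3 and 20.85% without beta sample 2. Caveola genes called between delta and alpha cells were 0 with the filter of 5 FPKM, after quantile normalisation and with the replicate block, and 0 (without alpha sample 1 or delta sample 5) to 2 (without alpha sample 5) with a sample left out. Between delta and beta cells they were 0 with that filter, 1 after quantile normalisation, 3 with the ribosomal set as a covariate, 3 in a fit of these 2 cell types and 1 to 2 with a sample left out. With the filter fewer genes are tested; elsewhere the cause was not tested.

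Deviations of samples sharing a replicate number correlated from -0.15 to 0.28, not over 0.1 in every pair, so the numbers were not taken to pair samples; the 3 pairs numbered 2 were at 0.27, 0.28 and 0.27. Median-ratio scaling moved the median difference of all genes from -0.13, 0.13 and 0.30 to 0.00, 0.00 and 0.02. With the replicate block, 1227, 831 and 2001 genes were called, and Cav1 delta minus beta was -0.10.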
